A study of Mus musculus with 2 samples.

Results

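The genes described here are 7 genes of the Src family of tyrosine kinases, Lyn, Fgr, Src, Fyn, Yes1, Lck and Blk, together with Csk, the kinase that restrains them. They were taken by name from a fixed list and make up 8 of the 21938 protein-coding genes of GENCODE M21 on mm10, and each name matched 1 gene. Not every Src-family gene is on the list. The dimethylated lysine H3K79me2, which the methyltransferase Dot1l places on nucleosomes of transcribed genes, was profiled with ChIP-seq in macrophages grown from bone marrow of C57BL/6J mice and left unstimulated. There were 2 biological replicates in 1 group, each from 10 ng of DNA, with the same donor identifier and no record of sex or age. The labels do not say whether the replicates came from separate animals or cultures, so a difference between them may be technical.

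Src-family kinases sit at the inner face of the plasma membrane and phosphorylate the signalling motifs of receptors that lack a kinase of their own. Csk phosphorylates a tyrosine in their C-terminal tail and so closes the kinase, and the phosphatase CD45 (Ptprc) reverses this step. Lyn and Fgr are the listed members best known from macrophages and other myeloid cells, and Lyn also serves B cells. Src, Fyn and Yes1 are used in many tissues, Lck is the kinase of the T cell receptor and Blk is a kinase of B cells.

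The deposited data are 4 lists of peaks. One list was called in replicate 1 alone (22979 peaks over 63.5 Mb), 1 in replicate 2 alone (31577 peaks over 114 Mb), 1 on the pooled reads (26838 peaks), and 1, the replicated list, was made by the authors from both replicates (15559 peaks over 93.2 Mb). Sequencing depth is unknown because reads were not counted in these files, and absence of a peak does not show absence of the modification. Bases that replicate 1's list covered lay under replicate 2's list in 99.2% of cases, whereas 55.2% of replicate 2's covered bases lay under replicate 1's. Of 8 macrophage markers 7 were marked in the replicated list, beside 30.3% of all coding genes, and the other, Csf1r, was marked only at another annotated start. All 26 markers of T, B and NK cells, neutrophils, fibroblasts and endothelium were without a covered base in any list. That was also the case for 60.1% of all coding genes. A gene is called marked here when 200 bp or more of its first 3 kb, starting at the outermost 5′ end in the annotation, were under peaks.

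H3K79me2 peaks were called over 3 of the 8 genes, Lyn, Csk and Fyn, and over no base of the other 5. Lyn and Csk carried long blocks with folds over the control among the highest of the list, and Fyn carried a series of peaks with low folds. Fgr, Src, Yes1, Lck and Blk had no covered base in any of the 4 lists, which was also the case for 60.1% of all coding genes. The listed myeloid members therefore did not share a pattern, since Lyn had the most covered bases of the 8 and Fgr had 0, while both lymphoid members, Lck and Blk, were at 0. The widely used members did not share one either, with 25980 covered bases in Fyn and 0 in Src and Yes1. In the replicated list at least 1 base was covered in 3 of 8 members, against 34.1% of all coding genes, a share that 8 genes cannot tell apart from the background.

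**Figure D1:**
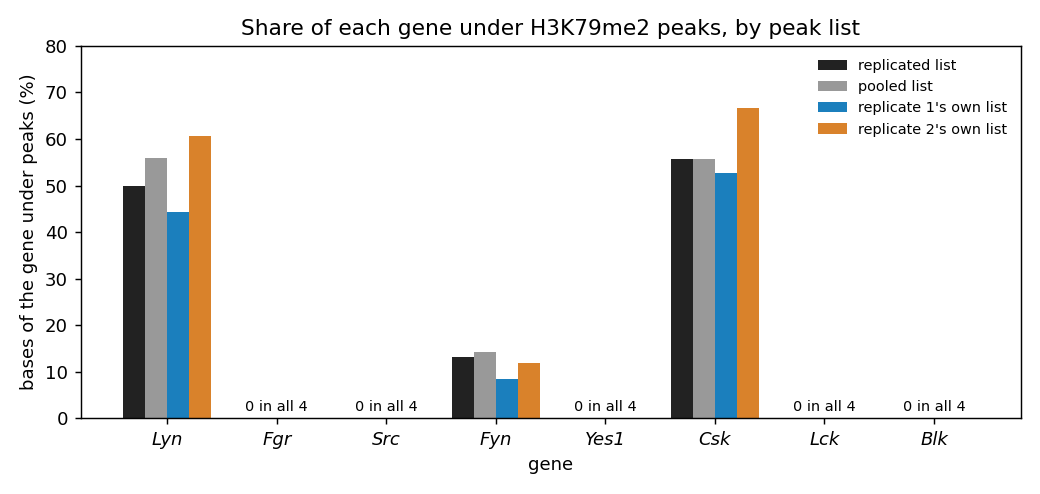
Share of the bases of each gene (y axis, percent) under peaks of each of the 4 lists (bars) for the 8 genes (x axis). Lyn reached 44.3% in replicate 1 and 60.6% in replicate 2, Csk 55.7% and Fyn 13.2% in the replicated list, and the other 5 genes were at 0 in every list.

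Under the rule at the outermost start, 2 of the 8 genes, Lyn and Fyn, were marked in the replicated list, beside 30.3% of all coding genes. The same 2 genes were marked in replicate 1's own list, beside 27.2% of coding genes, and in replicate 2's own list, beside 35.6%. Both replicates' own lists marked 27.2% of coding genes in common. In the pooled list they were again these 2, beside 34.3%. Fyn rested on 441 bp of its window in the replicated list, 367 bp in replicate 1's and 501 bp in replicate 2's. It was lost with a minimum of 1000 bp (Lyn alone, beside 28.7% of coding genes) and when peaks below the list's median fold were dropped (Lyn alone, beside 22.3%). A minimum of 1 bp (beside 30.7%) and a q of 0.05 or less (beside 30.3%) both left Lyn and Fyn. Neither could have removed them, since a lower minimum can only add genes and all their replicated peaks passed the q limit. Csk joined them when any annotated 5′ end could start the window (3 of 8 genes, beside 32.9%), when basic-set transcripts alone could (3 of 8, beside 32.5%), and when the whole gene was read (3 of 8, beside 33.9%).

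Lyn encodes the kinase that phosphorylates activating and inhibitory receptors alike and lies on chromosome 4 from 3678115 to 3813122, on the plus strand. Peaks covered 59843 bp (44.3%) of the gene in replicate 1, 81807 bp (60.6%) in replicate 2, 75412 bp (55.9%) in the pooled list and 67473 bp in the replicated list. Replicate 2 was the higher, and every base covered in replicate 1 was also covered in replicate 2, so the bases under both made up 73.2% of those under either, compared with 55.0% over the whole genome. Ranked by bases covered in the replicated list, which favours long genes, Lyn was number 162 of 21938. The annotated gene runs on to 135008 bp through a non-coding transcript. Over the 113499 bp of the coding transcript Lyn-201 the covered share was 59.4%, with 52.7% in replicate 1 and 72.1% in replicate 2. Both neighbours of Lyn were marked in both replicates, Tgs1, 61495 bp upstream, with 9028 bp covered in the replicated list, and the ribosomal protein gene Rps20, 18211 bp downstream, with 2214 bp.

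The covered part of Lyn was close to continuous from the start to about the second exon and then broke up. In the replicated list it began 38 bp downstream of the start, and the 5 blocks from there to 64215 bp measured 4923, 24327, 16490, 11971 and 4988 bp. In replicate 1 the first covered base was 606 bp downstream, and in replicate 2 the peak already spanned the start. The share covered from 0 to 20 kb was 95.0% in replicate 1 and 98.9% in replicate 2, and from 40 to 60 kb it was 91.7% and 97.5%. From 60 to 80 kb it was 17.5% and 54.7%, and from 80 to 100 kb it was 0 in replicate 1 and 36.7% in replicate 2. The replicates thus differed at the 3′ side of the gene and hardly at the 5′ side. In replicate 1 all covered bases lay before the gene's midpoint, in replicate 2 78.5% did, and the median over the 6658 genes marked in the replicated list was 100%.

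Most of the covered stretch was the long first intron. Intron 1 of Lyn-201 is 60360 bp long, and 97.6% of it lay under the replicated list, with 56961 bp in replicate 1 and 58972 bp in replicate 2. Intron 2 was 96.9% covered. All annotated exons together, 4073 bp of the 135008 bp gene, held 867 covered bases, which is 1.28% of the covered bases of the gene. Intron 10, 22590 bp long, held the last replicated block, from 98156 to 101076 bp, and replicate 1 had no base under it. Of the 8 replicated peaks in Lyn, 5 had bases in both replicates and the 3 at the 3′ side had bases in replicate 2 only. Short breaks recurred between the blocks. Stretches of 216 bp at 4972 bp, 608 bp at 29523 bp, 277 bp at 46675 bp and 214 bp at 58940 bp lay under no peak of any list, although both replicates were covered on both sides.

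**Figure D2:**
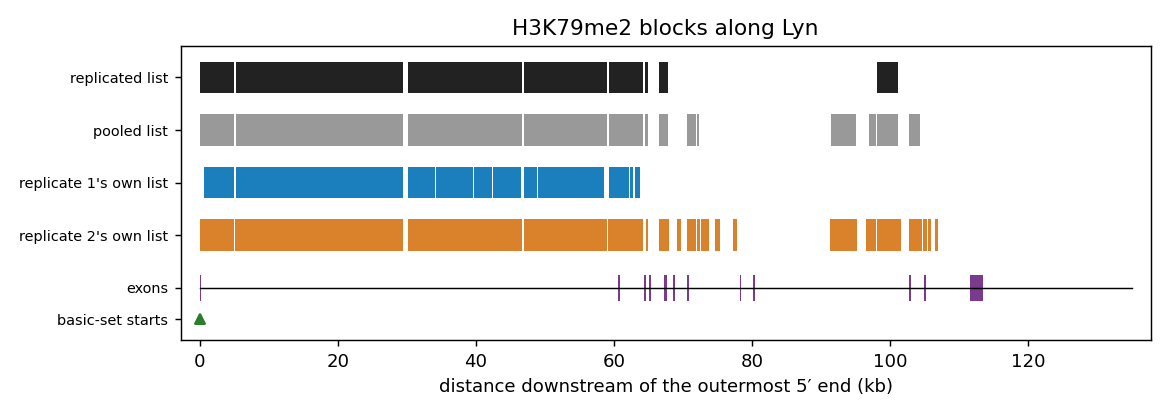
Blocks under peaks (bars) along Lyn in the 4 lists, by distance downstream of the outermost 5′ end (x axis, kb), with the exons of Lyn-201 and the 5′ ends of basic-set transcripts (triangles). All 4 lists covered most of the stretch up to about 60 kb, with shared breaks; the last block of replicate 1 ended at 63839 bp, and replicate 2 had peaks beyond it.

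Each peak carries the authors' own enrichment over the control, called its fold here, which was used to rank peaks within a list. The highest peak of Lyn had a fold of 33.0 in the replicated list, the 62nd of 15559 peaks. It ranked 134 of 22979 in replicate 1 (fold 21.4) and 63 of 31577 in replicate 2, where the fold of the next block was 37.1. The summits of these peaks were 8751 bp downstream of the start in replicate 1 and 8682 bp in replicate 2. The fold was highest in the block that follows the first break and was lower at each later block of the replicated list up to 64948 bp, at 30.8, 22.9, 15.3 and 2.85. At the 3′ side the peaks of replicate 2 that had no counterpart in replicate 1 had folds of 8.78 or less. Among marked genes, 99.2% had a lower highest fold than Lyn, and their median was 12.3.

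**Figure D3:**
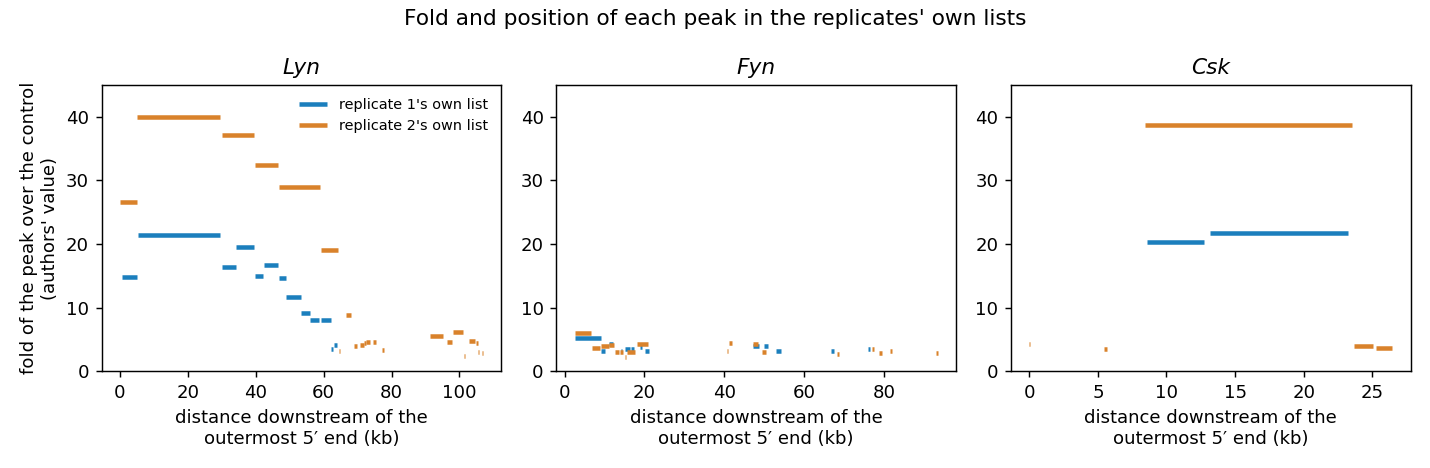
Enrichment of peaks over the control (y axis, authors' fold) against its position (x axis, kb downstream of the outermost 5′ end) in the replicates' own lists for Lyn, Fyn and Csk. Each bar spans 1 peak, and folds are not compared between the lists because their scaling is not stated; within each list the peaks of Lyn and Csk reached above 20 and those of Fyn stayed below 6.

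Csk encodes the inhibitory kinase of the family and lies on chromosome 9 from 57626646 to 57653631, on the minus strand. Peaks covered 14247 bp (52.8%) of the gene in replicate 1, 18003 bp (66.7%) in replicate 2, 15051 bp (55.8%) in the pooled list and 15035 bp (55.7%) in the replicated list. The pooled and replicated lists differed little, and replicate 2 was the highest. It again held every covered base of replicate 1, with 79.1% of the bases under either replicate's list under both. In the replicated list the gene held 1 block of 15035 bp, from 57630185 to 57645219, with a fold of 31.2, the 137th of 15559 peaks. The highest Csk peak ranked 107 in replicate 1 and 116 in replicate 2, so the short gene Csk stood beside Lyn by fold, though it was number 1815 of 21938 by bases covered. Its neighbours Cyp1a2, a cytochrome P450 gene 23305 bp upstream, and Lman1l, 5871 bp downstream, had 0 covered bases in all 4 lists.

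The block of Csk followed an inner start and not the outermost one. The outermost coding transcript, Csk-204, begins at 57653631, and its first 3 kb held 0 bp in replicate 1, 0 bp in the replicated list and 81 bp in replicate 2. The main inner coding transcript, Csk-201, begins 7978 bp further in, at 57645653, and its first 3 kb held 2401 bp in replicate 1, 2575 bp in replicate 2 and 2566 bp in the replicated list. The first covered base lay 599 bp downstream of this inner start in replicate 1, 425 bp in replicate 2 and 434 bp in the replicated list. The block ended at 23447 bp from the outermost start in the replicated list, and in replicate 2 alone 2 further peaks with folds of 3.98 and 3.61 continued over the 3′ exons. A further peak lay over the outermost start in replicate 2 (fold 4.23) and in the pooled list (fold 2.51). Of the covered bases 31.9% in replicate 1, 30.1% in replicate 2 and 33.8% in the replicated list lay before the midpoint of the annotated gene. The median over genes marked in the replicated list was 100%. Those genes were chosen by cover at the outermost start and leave out Csk, so the rule itself favours this contrast. Csk was 1 of 562 coding genes (2.56%) marked at an annotated start other than the outermost one and unmarked there.

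The sequences around these starts are shown because the covered and uncovered starts can be compared for their density of CpG dinucleotides. Each runs 5′ to 3′ over 300 bases, 250 upstream and 50 downstream of a RefSeq start (GRCm38.p6, the assembly of mm10), with CpG in capitals. The table of RefSeq starts held 8 promoters of 6 of the 8 genes; Lyn and Blk were not among them. The outermost and inner starts of Csk come first, at chr9:57653582-57653881 and chr9:57645604-57645903, both on the minus strand. Fyn, whose gene body was covered, follows at chr10:39369549-39369848, and then Yes1 at chr5:32610921-32611220 and Fgr at chr4:132973845-132974144, whose gene bodies were not, all on the plus strand.
Csk outermost start: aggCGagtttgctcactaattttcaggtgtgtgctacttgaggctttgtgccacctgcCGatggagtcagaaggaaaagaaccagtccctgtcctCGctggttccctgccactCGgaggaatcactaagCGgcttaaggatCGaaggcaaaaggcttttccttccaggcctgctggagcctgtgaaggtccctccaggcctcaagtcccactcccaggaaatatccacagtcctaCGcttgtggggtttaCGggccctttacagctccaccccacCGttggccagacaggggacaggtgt
Csk inner start: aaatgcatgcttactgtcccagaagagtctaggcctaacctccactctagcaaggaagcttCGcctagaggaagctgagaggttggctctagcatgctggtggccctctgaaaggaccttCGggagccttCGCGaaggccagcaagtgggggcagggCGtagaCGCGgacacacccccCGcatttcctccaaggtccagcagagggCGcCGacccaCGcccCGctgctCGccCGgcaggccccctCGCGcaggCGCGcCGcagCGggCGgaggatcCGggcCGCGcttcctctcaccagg
Fyn: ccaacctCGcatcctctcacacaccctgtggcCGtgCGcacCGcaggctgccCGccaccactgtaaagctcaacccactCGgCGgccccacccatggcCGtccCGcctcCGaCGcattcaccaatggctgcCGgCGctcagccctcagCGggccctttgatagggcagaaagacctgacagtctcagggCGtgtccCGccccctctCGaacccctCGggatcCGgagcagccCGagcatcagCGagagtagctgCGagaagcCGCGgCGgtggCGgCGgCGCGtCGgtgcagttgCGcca
Yes1: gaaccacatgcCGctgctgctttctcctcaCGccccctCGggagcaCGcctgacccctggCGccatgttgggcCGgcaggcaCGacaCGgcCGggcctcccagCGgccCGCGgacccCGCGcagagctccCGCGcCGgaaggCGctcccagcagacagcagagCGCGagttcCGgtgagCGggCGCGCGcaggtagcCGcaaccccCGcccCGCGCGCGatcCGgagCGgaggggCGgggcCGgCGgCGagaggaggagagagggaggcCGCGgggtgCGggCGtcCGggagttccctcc
Fgr: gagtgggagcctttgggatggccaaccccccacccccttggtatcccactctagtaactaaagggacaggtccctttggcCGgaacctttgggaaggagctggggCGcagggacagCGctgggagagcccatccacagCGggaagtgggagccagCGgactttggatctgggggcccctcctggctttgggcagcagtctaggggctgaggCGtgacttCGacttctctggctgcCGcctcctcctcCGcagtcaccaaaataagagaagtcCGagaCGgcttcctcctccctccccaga

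The 2 starts of Csk differed in base composition. The outermost held 9 CpG (observed to expected ratio 0.383) and the inner start, upstream of the block, held 24 (ratio 0.729, GC content 66.3%). With CpG-rich defined as a ratio of 0.6 or more and a GC content of 50% or more, 4 of the 8 promoters were CpG-rich: the inner start of Csk, Fyn (31 CpG, ratio 0.891), Src (47 CpG, ratio 0.927) and Yes1 (42 CpG, ratio 0.945). Of these 4, the inner start of Csk and Fyn had at least 200 bp covered in the next 3 kb, whereas Src and Yes1 had none. None of the other 4 promoters, of Fgr (11 CpG, ratio 0.373), both starts of Lck (5 and 7 CpG) and the outermost start of Csk, was marked downstream. Over all RefSeq starts of coding genes, 54.7% of 9417 CpG-rich and 15.7% of 10731 other promoters were marked downstream. The 2 most CpG-dense promoters of the set, Src and Yes1, were thus both without a peak. The letters GGAAGT are a form of the sequence bound by ETS factors such as PU.1, and shorter forms were not counted. They were found on either strand in the promoter of Fgr and in both of Lck, once each. None of the promoters of Csk, Fyn, Src or Yes1 held them. Of all 20148 promoters 25.2% held them, and the match is a description of these letters only. The longer form GAGGAAGT was in none of the 8 promoters, beside 3.11% of all promoters.

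Fyn encodes a kinase used in T cells, neurons and many other cells and lies on chromosome 10 from 39368855 to 39565381, on the plus strand. Peaks covered 16739 bp (8.52%) of this 196527 bp gene in replicate 1, 23154 bp (11.8%) in replicate 2, 28194 bp (14.3%) in the pooled list and 25980 bp (13.2%) in the replicated list. Replicate 2 had the higher total, and the replicates covered partly different bases. Of the bases under either list 50.9% were under both, lower than in Lyn (73.2%) and Csk (79.1%), and 80.4% of the bases of replicate 1 were also in replicate 2. This was the 1 gene of the 3 in which replicate 1 held bases that replicate 2 lacked.

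The peaks of Fyn began well inside the gene. Counted from the 5′ end of the coding transcript Fyn-201, the first covered base of the replicated list lay 1650 bp downstream. It lay 1724 bp downstream in replicate 1 and 1590 bp in replicate 2. From the outermost start the first base of the replicated list lay at 2559 bp, where the median over all marked genes was 377 bp. From 0 to 20 kb 56.6% of bases were covered in replicate 1 and 78.2% in replicate 2. From 20 to 100 kb no step of 20 kb was above 17.7% in either replicate, and beyond 100 kb every list was at 0. Intron 1 was covered over 74.8% of its 24814 bp and intron 2 over 12.4% of its 60021 bp in the replicated list, and no exon of Fyn held a covered base in any list. The 2 inner clusters of basic-set starts, at 85950 and 142884 bp, had 0 bp in their first 3 kb in every list. No base of the neighbours Ccn6, 205060 bp upstream, and Traf3ip2, 47552 bp downstream, was covered in any list.

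The highest fold in Fyn was below the highest folds in Lyn and Csk in each list, and in bulk material a mark in fewer cells and less of it per cell cannot be told apart. The highest fold was 5.03 in the replicated list, number 10646 of 15559 peaks, and 9.97% of marked genes had a lower highest fold. None of the 11 replicated peaks in Fyn reached the list's median fold of 7.37, whereas 1 peak reached the list's own median in replicate 1, 1 in replicate 2 and 4 of 15 in the pooled list. The highest Fyn peak ranked 8231 of 22979 in replicate 1 and 12057 of 31577 in replicate 2, above the middle of both lists. Of the 11 replicated peaks 6 had bases in both replicates' own lists. The peak from 77841 to 78505 bp had none in either, and the peak from 38776 to 39846 bp had none in either and none in the pooled list.

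**Figure D4:**
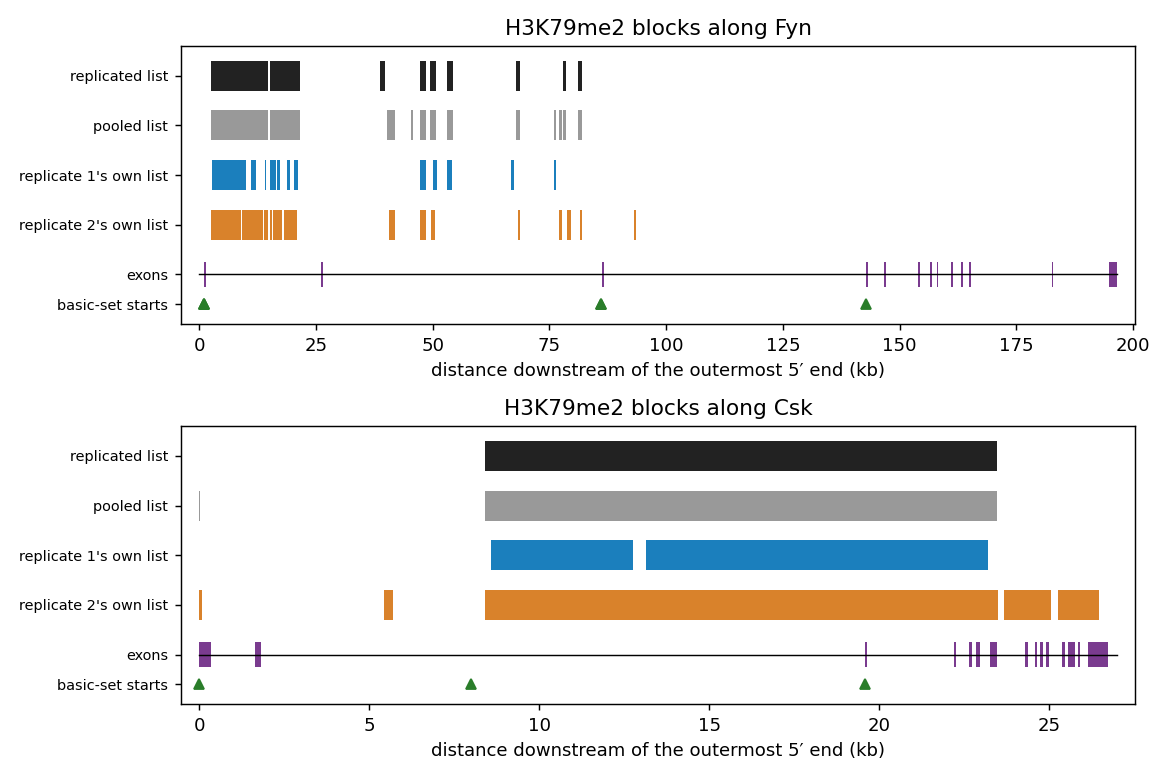
Blocks under peaks (bars) along Fyn and Csk in the 4 lists, by distance downstream of the outermost 5′ end (x axis, kb), with the exons of Fyn-201 and Csk-204 and the 5′ ends of basic-set transcripts (triangles). The peaks of Fyn thinned out after about 20 kb, and the block of Csk began just downstream of its inner start at 7978 bp.

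Fgr encodes a kinase of neutrophils, monocytes and macrophages and lies on chromosome 4 from 132974095 to 133001910. It had 0 covered bases in replicate 1, replicate 2, the pooled list and the replicated list. Its closest peak in the replicated list lay 51908 bp upstream, inside the neighbouring gene Fam76a (3286 bp covered), and Ahdc1, 9349 bp downstream of Fgr, was also at 0 in all 4 lists. Neither 5′ end of a coding transcript of Fgr, at 7 and 3021 bp from the outermost 5′ end, had a covered base in its first 3 kb. By this measure Fgr stood apart from Lyn and was at 0 like Src, Yes1, Lck and Blk, and like 60.1% of all coding genes.

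Src and Yes1, the widely used members, were likewise at 0 in all 4 lists. Src, the founding member, lies on chromosome 2 from 157418444 to 157471862, and none of its 8 annotated transcripts had a covered base in its first 3 kb. The closest replicated peak was 34046 bp upstream, in Manbal, which was marked in both replicates, and at 41077 bp in replicate 1 and 23881 bp in replicate 2. Blcap, 84499 bp downstream, was unmarked at its outermost start and had 9736 bp covered. Yes1 lies on chromosome 5 from 32611171 to 32687057. Its upstream neighbour Ppp1cb, which encodes a catalytic subunit of protein phosphatase 1, was marked with 20082 bp covered, and the closest replicated peak lay 52346 bp downstream, over Pisd.

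Lck and Blk, the lymphoid members, were at 0 in all 4 lists. Lck lies on chromosome 4 from 129548344 to 129573641, on the minus strand. Its downstream neighbour Hdac1, a histone deacetylase gene 5630 bp away, was marked in both replicates and had 7325 bp covered, and the nearest peak stopped 5726 bp short of Lck. Fam167b, 3173 bp upstream, had 0 covered bases in all 4 lists. The distal start of Lck and the proximal starts, 15250 and 15269 bp further in, all had 0 bp in their first 3 kb. Blk, on chromosome 14 from 63372836 to 63417037, lay farther from any peak, 124826 bp in the replicated list, 195096 bp in replicate 1 and 121759 bp in replicate 2, between Fam167a and Gata4, which had no covered base either. These values separate Lck and Blk from Lyn, and not from Fgr, Src or Yes1.

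The gene outside the family whose pattern was most like that of Lyn was Apbb1ip, which encodes the integrin adaptor RIAM. Likeness was the Euclidean distance between the shares covered in 20 equal bins in each of the 2 replicates (40 values), among 1811 genes with a length from 0.67 to 1.5 times that of Lyn. Apbb1ip was at a distance of 0.905, with 44.2% covered in replicate 1 and 51.5% in replicate 2, and the median distance was 4.34. It was not far ahead of the next closest genes, at 1.03 and, for Ptprc, 1.16.

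Genes around the family were counted in fixed lists, with values from the replicated list. Of the kinases that act downstream in myeloid cells 7 of 8 were marked, beside 30.3% of all coding genes. These 7 were also marked in both replicates' own lists, beside 27.2% of all coding genes. The longest covered totals were 81271 bp in Ptk2b, which encodes the adhesion kinase Pyk2, 77067 bp in Tec and 60651 bp in Abl2. Syk, the kinase that binds receptor motifs phosphorylated by the Src family, had 37187 bp covered. Ptk2, which encodes the focal adhesion kinase FAK, was at 0 in every list. Of the adaptors and effectors 18 of 21 were marked, beside the same 30.3%. Replicate 1's own list marked 16, beside 27.2% of all coding genes, and replicate 2's marked 18, beside 35.6%. Covered totals were 135851 bp in Gab2, 133622 bp in Vav3 and 92466 bp in Skap2, and Cblc, Bcar1 and Stap2 were at 0 in every list.

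Of 16 genes that set the C-terminal tyrosine or its regulators 10 were marked, beside 30.3% of all coding genes, and 14 were marked at some annotated start, beside 32.9%. Replicate 1's own list marked 10, beside 27.2% of all coding genes, and replicate 2's marked 13, beside 35.6%. Cblb (96247 bp) and Cbl (63249 bp), both ubiquitin ligases, and Ptpra (61396 bp), a receptor phosphatase, had the most covered bases among the marked ones. Ptprc, the gene of CD45, had 56482 bp covered, and Pag1, the membrane adaptor that recruits Csk, had 58748 bp in the replicated list but 13742 bp in replicate 1 against 86208 bp in replicate 2. Matk, which encodes a second Csk-type kinase, was at 0 in every list. Ptprj and Ptpre were unmarked at the outermost start in the replicated list and in replicate 1 but marked there in replicate 2, and they had 106757 bp and 15611 bp covered in the replicated list.

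Upstream of the kinases, 8 of 11 genes of ITAM and adhesion receptors and their adaptors were marked, beside 30.3% of all coding genes, among them the integrin genes Itgb1 (28961 bp), Itgav (27160 bp) and Itgb2 (15991 bp). The small adaptor genes Tyrobp and Fcer1g, whose motifs the Src family phosphorylates, were covered over 100% and 99.6% of their length. Fcgr3 was unmarked at its outermost start with 7534 bp covered, Fcgr4 was at 0 in the replicated list and had 5462 bp in replicate 2, and Oscar was at 0 in every list. Of the inhibitory receptors, which recruit phosphatases once Lyn has phosphorylated them, 7 of 10 were marked, beside the same 30.3%, led by Lair1 (44746 bp), Sirpa (31867 bp) and Cd300a (10137 bp). Pecam1 and the B cell receptor gene Cd22 were at 0 in every list, and Cd33 was unmarked at its outermost start with 1797 bp covered.

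None of 17 lymphoid counterparts was marked in the replicated list, beside 30.3% of all coding genes, and 15 of them had no base in any list, beside 60.1%. Zap70, the T cell relative of Syk, and Txk, a Tec-family kinase gene, were at 0 in all 4 lists. Cd4 had 589 bp in replicate 2 alone, which marked it there. Cd28, a costimulatory receptor gene of T cells, was the exception, with 16321 bp covered in replicate 1, 20477 bp in replicate 2 and 18253 bp in the replicated list. Its block in the replicated list began 32 bp downstream of the 5′ end of its coding transcript. That start lies 29558 bp inside the annotated gene, so the gene was unmarked at its outermost start. Among the other non-receptor tyrosine kinases 3 of 11 (27.3%) were marked, near the 30.3% of all coding genes. They were Jak1 (69774 bp, overlapping 1 other coding gene), Jak2 (11389 bp) and Tyk2 (3559 bp). Jak3, which also overlaps 1 other coding gene, had 1948 bp in replicate 2 and 0 in replicate 1, and Fer and Tnk1 were unmarked with 4136 bp and 0 bp. The median covered length was 32016 bp over the adaptors and effectors, 31482 bp over the downstream kinases, 29269 bp over the genes of the C-terminal tyrosine, 4777 bp over the upstream receptors, 3882 bp over the inhibitory receptors and 0 over both other lists and over all coding genes. Such totals favour long genes. The 4777 bp of the upstream receptors was the total of Fcer1g, a gene covered over 99.6% of its length. Genes are not replicates, and the lists were not tested against each other.

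**Figure D5:**
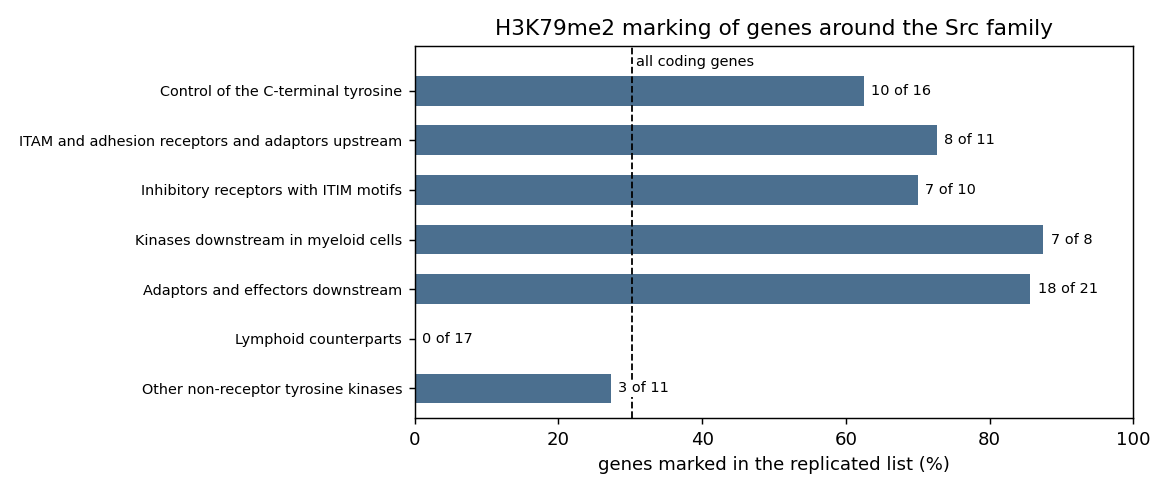
Share of genes marked in the replicated list (x axis, percent) for 7 fixed lists around the Src family (bars, with marked and matched genes), and the share over all coding genes (dashed line, 30.3%). The lists range from 0 of 17 lymphoid counterparts to 7 of 8 downstream kinases.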

How the data were processed

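H3K79me2 ChIP-seq of 2 biological replicates was used as 4 deposited peak lists on mm10, per the text notes deposited with them. The aligner, peak caller and thresholds were not given in the sources used here. Each deposited peak carries a fold ratio over the control, made by the authors and used to rank and filter within a list, and the authors' −log10 q-value; the deposited display scores and p-values were not used. The deposited summit offset placed summits.

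Peaks were merged within each list with Python 3.11.15 and set against GENCODE M21 coding genes of the 19 autosomes, X and Y. Marking took 200 bp within 3 kb of the outermost 5′ end. Coordinates are 1-based. The fixed lists matched 94 of 96 names; Clec7a and Ighm did not match a coding gene. The members and lists were chosen with earlier results of these data known, so no test was run. Named genes follow a fixed rule: all members, the nearest neighbours, up to 3 marked and 3 unmarked genes a list, and the most alike gene; some items under the rule are not reported here. Syk, Ptprc, Pag1, Tyrobp, Fcer1g, Cd4, Cd28, Cd22, Jak3 and Csf1r were named after their values were seen. The code was tested on simulated peaks. Figures were drawn with matplotlib 3.10.9.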

Additional observations from a re-analysis of the deposited data

How the results depend on the processing

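The number of the 8 genes marked was 2 in the replicated list and 1 without peaks below the median fold or with a minimum of 1000 bp, and Fyn was the gene lost in both. It was 2 without replicate 1 and 2 without replicate 2, and 3 with other annotated starts or the whole gene, Csk being added. The number of genes marked in the fixed signalling lists was 53 of 94, beside 30.3% of all coding genes. It was 59 without replicate 1, beside 35.6%, and 50 without replicate 2, beside 27.2%. It stayed within 1.5 times of 53 under each alternative run. Over the 7 lists taken singly, 66 of 70 values stayed within that factor, and the other 4 were the lymphoid counterparts at 1 in place of 0. The limit on q, 1 of the alternatives, left all 6658 marked coding genes as they were. Its values for the 7 lists could therefore not have moved. Covered bases of Fyn were 25980 in the replicated list, 28194 in the pooled list, 16739 without replicate 2 and 23154 without replicate 1, and were 0 once peaks below the median fold were dropped, and those of Csk were 18003 without replicate 1. Fgr, Src, Yes1, Lck and Blk had no covered base in any of the 4 lists. Every alternative run drew on these lists, so none could have changed that. No paired analysis was possible because there was 1 group. Depth is unknown, so whether a missing peak reflects depth was not tested.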

Other observations

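The Fyn peak from 38776 to 39846 bp, in the replicated list alone, belongs to a small class. Of the 15559 replicated peaks, 238 (1.53%) overlapped no peak of replicate 1, replicate 2 or the pooled list. Their median fold was 2.55, with a highest of 4.11, and their median width was 450.5 bp. Bases were found in both replicates' own lists for 11624 replicated peaks (74.7%) and in neither for 399 (2.56%). The rule by which the authors made the replicated list was not given in the sources used here.

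Cd28 stood apart from the other lymphoid counterparts, with a block of 18253 bp that both replicates covered. It began close to the 5′ end of the gene's coding transcript. The highest fold of Cd28 was 19.4 in the replicated list.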
